A study of Mus musculus with 8 samples.

Results

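The array names mmu-miR-805, mmu-miR-690, mmu-miR-709 and mmu-miR-720 (mmu, mouse; miR-805, miR-690, miR-709 and miR-720 from here on) were followed in mouse kidney after urinary obstruction. They were chosen by name, as 4 of the 611 mouse microRNA (miRNA) names on the array, because they are thought to mark fragments of other RNAs (mitochondrial, transfer or ribosomal) rather than miRNAs. The choice also used values: miR-805 had already stood out in the same comparison as a called miRNA whose groups overlapped. Changes of the 4 names between obstructed and contralateral kidneys are therefore given as a description, with no test. The samples were kidneys of ICR mice, an outbred strain, harvested 7 days after one ureter was ligated. The 4 control samples were contralateral kidneys, whose own ureter was open in an animal that had been operated on, and the 4 UUO samples (unilateral ureteral obstruction) were the obstructed kidneys. Genotype and age were not used here. Whether kidneys of 1 group came from separate mice is not stated, so an error below reflects the spread between these samples, which may be partly technical. The SE of a log2 difference is the moderated standard error of limma, which also draws on the spread of the other tested miRNAs.

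A miRNA is a short RNA cut by Drosha and Dicer from a hairpin precursor and loaded onto an Argonaute protein, which it guides to messenger RNAs through its seed, the bases near its 5′ end. Fragments of transfer, ribosomal or mitochondrial RNA can have a similar size without passing through that pathway. The labelling used here joins Cy3 to the 3′ ends of RNA in 100 ng of total RNA, so a probe reports any short RNA that pairs with it. Kidney tubule epithelium, above all the proximal tubule, is rich in mitochondria.

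Of the 4 names, only miR-690 had a mature sequence in the RefSeq table used here (GRCm38.p6). That sequence is shown because it is the RNA the name miR-690 stands for; the probe sequences were not used here. It lies at chr16:28599940-28599961 on the minus strand, inside the span of Fgf12, a gene for a fibroblast growth factor homologous factor. The first line below has the seed (bases 2 to 8) in capitals, and the second has in capitals the stretch of 12 bases, 9 to 20, that occurred most often in promoters.
miR-690 seed: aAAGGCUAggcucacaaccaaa
miR-690 stretch: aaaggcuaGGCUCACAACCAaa
No other mature sequence in the table had this seed. The stretch GGCTCACAACCA (or TGGTTGTGAGCC, the opposite strand) was found in 100 of 32851 RefSeq promoters of 300 bases, or 0.304%, while the other 10 stretches of 12 bases in miR-690 were found in 1 to 11 promoters each. It was picked after the counts were seen. Of the 1679 mature names in the table, 15 had a stretch of that length found in more promoters, and the median over names was 6 promoters for the most frequent stretch. These letters are therefore not unique to the miR-690 locus, which says nothing about which RNA gave the signal. The Mir709 gene lies in the span of Rfx1, which encodes a transcription factor, in the same annotation.

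Each of the 4 names was above background on all 8 arrays, for which 1 of its probes was enough, and none of their spots was saturated. Values are log2 scaled signals: the summed signal of a name's probes divided by the 75th percentile of bright probes of the same array, so that 0 means a signal equal to that percentile. The array design gave 20 spots to each name, as 4 probes for miR-805 and 2 for each of the others. Signal before scaling differed between arrays: the 75th percentile was between 417 and 582 on contralateral and between 514 and 1595 on obstructed arrays, with a log2 difference of 0.88 (exact permutation test, two-sided, p = 0.0857; n = 4 each; the smallest possible p is 0.0286). The array of obstructed kidney 2 was unlike the rest of its group. Its mean correlation across miRNAs was 0.964 with the contralateral and 0.887 with the other obstructed arrays. Log2 differences, within-group SDs and correlations of the names (group means left in) are therefore also given without that array. The labelled tissue was checked against tubule markers: miR-192, miR-194 and miR-204 were above background on all 8 arrays and miR-215 on none.

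Relative to the bright probes of each array, miR-805 was 3.96-fold lower in obstructed kidneys, with a log2 difference of -1.98 ± 0.51 (SE, n = 4 each). The name was given to a sequence that is thought to belong to the mitochondrial genome. Its log2 scaled signal was -1.80, -2.03, -2.41 and -1.61 in contralateral kidneys 1 to 4, and -4.63, -2.30, -4.31 and -4.54 in obstructed kidneys 1 to 4. Obstructed kidneys 1, 3 and 4 lay below every contralateral kidney, whereas obstructed kidney 2 lay inside the contralateral range. Against the contralateral mean, obstructed kidneys 1, 3 and 4 were 6.38-fold, 5.09-fold and 5.97-fold lower and kidney 2 was 1.27-fold lower. When obstructed kidney 2 is left out the log2 difference was -2.53. In bulk kidney RNA, fewer cells of a type and less RNA per cell cannot be told apart.

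**Figure D1:**
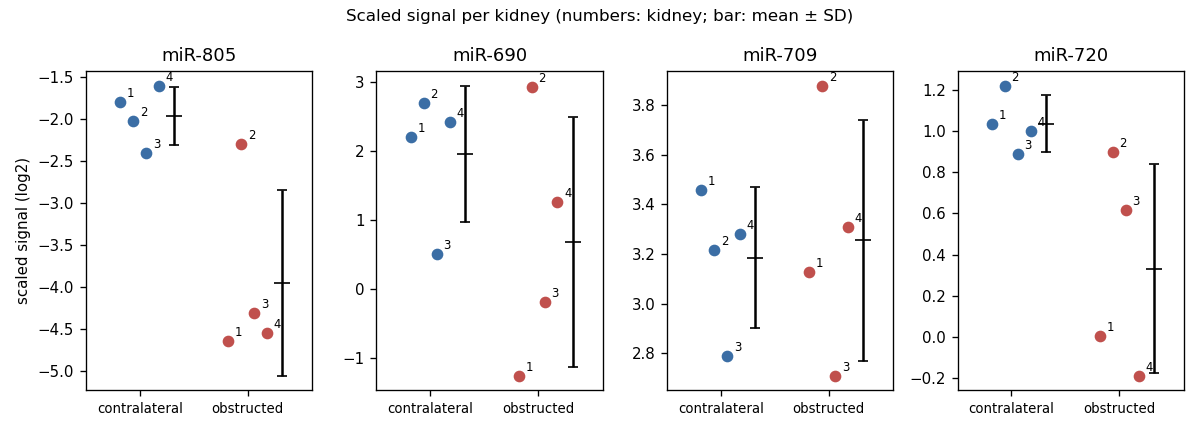
Log2 scaled signal of each name (vertical axis, own scale per panel) in 4 contralateral and 4 obstructed kidneys. Points are arrays with the kidney number beside them, and the black bar is the mean ± SD (n = 4). For miR-805, obstructed kidneys 1, 3 and 4 lie between -4.63 and -4.31 and kidney 2 at -2.30, within the contralateral range.

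miR-805 was 1 of 30 miRNAs called lower among 222 tested (limma with Benjamini-Hochberg adjustment over 222, adjusted p under 0.05), or 13.5% of those tested. Since that call is part of how miR-805 was chosen, nothing is read from it. The other 3 names were not called in either direction, beside 14.9% of all tested miRNAs. None of these 3 had groups that did not overlap, beside 23% of all tested miRNAs (21.2% lower and 1.8% higher in obstructed kidneys). The groups of miR-805 overlapped too, which was known when it was chosen. The call of miR-805 held in 7 of 23 alternative fits, from which nothing is read either. The count of called miRNAs ran from 0 to 113 when 1 array was left out, with 113 when that was obstructed kidney 2. The median log2 difference of all 222 was -0.14, and relative to it miR-805 was at -1.84, miR-690 at -1.13, miR-709 at 0.21 and miR-720 at -0.56.

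The level of miR-805 rested on 1 bright probe. That probe had mean spot signals of 115, 85.4, 88.6 and 159 in contralateral kidneys 1 to 4 and of 25.0, 84.7, 58.3 and 53.0 in obstructed kidneys 1 to 4, before any scaling. It was above background on all 8 arrays. However, its signals of 25.0, 58.3 and 53.0 on obstructed kidneys 1, 3 and 4 were close to those arrays' floors, 14.7, 29.8 and 33.9. Its spots, 5 per array, had a coefficient of variation of 2.44% to 13.9%. Taken alone, its log2 difference after scaling was -1.98. A second probe was above background on 4 contralateral arrays and on 1 obstructed array, kidney 2, another on 1 contralateral array only, and the remaining one on none. The dim probes give no measured fold of their own on most obstructed arrays.

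The fall of miR-805 was also present before scaling. Its summed signal was 147, 103, 104 and 191 in contralateral kidneys 1 to 4 and 27.8, 104, 70.9 and 68.6 in obstructed kidneys 1 to 4, a log2 difference of -1.10, or -1.36 without obstructed kidney 2. Obstructed kidney 2 again lay inside the contralateral range and the other 3 below it, although the arrays of obstructed kidneys 3 and 4 were the brightest of all. Before scaling the median log2 difference of the 222 tested miRNAs was 0.74, and only 27 of them lay below 0. With -1.10, miR-805 had the lowest value of the 222, and of the 30 miRNAs called lower after scaling, 15 were below 0 before it. These values come from the comparison that chose miR-805 and are a description.

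**Figure D2:**
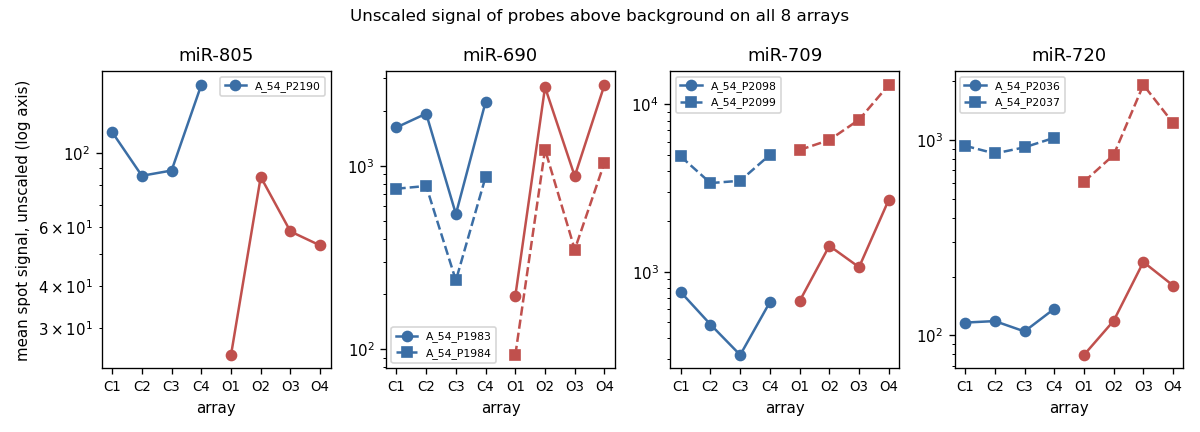
Mean spot signal before scaling (log axis) on contralateral arrays C1 to C4 (blue) and obstructed arrays O1 to O4 (red; lines only link the points of 1 probe), for the probes of each name that were above background on all 8 arrays. The single such probe of miR-805 falls to 25.0 on O1, while both probes of miR-709 reach their highest signals, 2694 and 13087, on O4.

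Among the 4 names, miR-690 varied most between kidneys of the same group. It has been described in macrophage vesicles with effects on insulin sensitivity. Log2 scaled signals were 2.21, 2.69, 0.50 and 2.41 in contralateral kidneys 1 to 4, and -1.26, 2.93, -0.19 and 1.25 in obstructed kidneys 1 to 4. The lowest and highest values of all 8 arrays were both obstructed kidneys, 1 and 2, and they differed 18.2-fold, while the contralateral kidneys spanned 4.57-fold with kidney 3 as the low one. The log2 difference between groups was -1.27 ± 0.90 (SE, n = 4 each), smaller than the SD of 1.82 among obstructed kidneys. Without obstructed kidney 2 it was -2.02, and without obstructed kidney 1 it was -0.63.

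Both miR-690 probes showed the same spread. The brighter one had mean spot signals before scaling of 1619, 1925, 545 and 2232 in contralateral and of 195, 2683, 877 and 2761 in obstructed kidneys 1 to 4. The 2 probes kept a nearly constant log2 gap of 1.07 to 1.41 over the 8 arrays. Their log2 differences between the groups were -1.28 and -1.27. Spots of a probe on 1 array had coefficients of variation of 2.29% to 26.5%, with the highest values on obstructed kidneys 1 and 3, and the standard error of a probe's log2 mean was at most 0.12. The obstructed kidneys spanned 4.19 on the log2 scale; the error of spots is that of 1 array and not of kidneys. Before scaling, the summed signal was 288 in obstructed kidney 1 and 3909 in obstructed kidney 2.

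The within-group SD is given as a description, since the overlap of the groups that entered the choice of miR-805 came from the spread of its obstructed kidneys. For miR-690 it was 1.46 on the log2 scale, the second largest of the 222 tested miRNAs, whose median was 0.36. The values were 0.82 for miR-805, 0.40 for miR-709 and 0.37 for miR-720, at ranks 34, 100 and 107. For miR-805, most of it came from the obstructed kidneys, with an SD of 1.10 beside 0.34 in the contralateral ones. Spread was also higher in the obstructed group for miR-709 (0.48 beside 0.28) and miR-720 (0.51 beside 0.14). Without obstructed kidney 2 the within-group SD of miR-805 was 0.29, at rank 93, and that of miR-690 was 1.11, at rank 6, beside a median of 0.25 over all tested miRNAs. Those of miR-709 and miR-720 were then 0.29 each.

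Spread was also wide among names with neighbouring numbers. The array carried 45 names numbered miR-680 to miR-721, arms included, or miR-805. Of these, 22 were above background on no array and 14 passed the filter on dim signals (above background on every array of 1 group or both) and were tested, the 4 names among them. Of the 14, miR-685 and miR-714 passed it through the obstructed group alone. Both are kept in the medians and counts below, which are a description. The 14 had a median within-group SD of 0.81, beside 0.35 for the other 208 tested miRNAs, and 5 of the 14 exceeded the 90th percentile of all tested miRNAs, beside 18 of the 208. Those 5 were miR-681 (1.54, the largest of all), miR-690, miR-691 (1.32), miR-685 (1.28) and miR-706 (1.23), named after their values were seen. Without obstructed kidney 2 the median SDs were 0.67 and 0.23, and 6 of the 14 exceeded the 90th percentile, beside 17 of the 208. Of the 14, 1 was called higher, beside 1.35% of all tested miRNAs, and 1 lower, beside 13.5%. The higher one was miR-680, with a log2 difference of 1.16 ± 0.22 (SE, n = 4 each). The lower one was miR-805, whose call is part of how it was chosen.

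**Figure D3:**
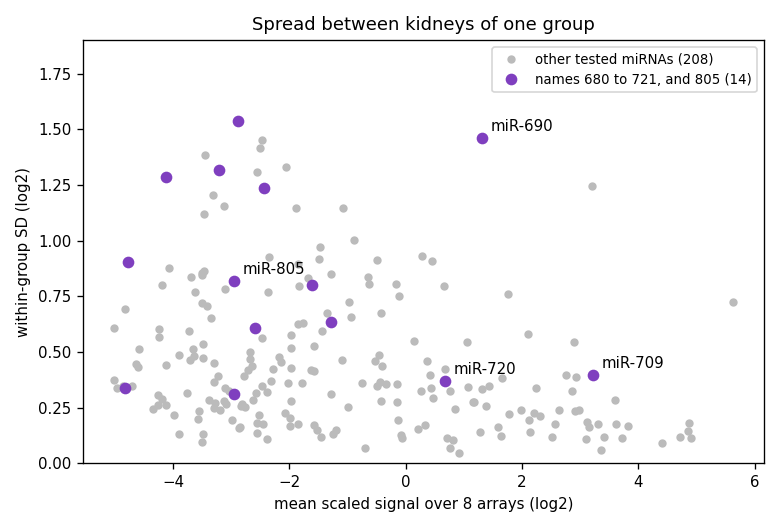
Within-group SD of log2 scaled signal (vertical axis) against mean log2 scaled signal over 8 arrays (horizontal axis) for the 222 tested miRNAs. Purple points are the 14 tested names from miR-680 to miR-721, or miR-805, with a median SD of 0.81, and grey points are the other 208, with a median of 0.35.

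miR-709 did not separate the groups after scaling. It has been studied in proximal tubule injury, where it was described as acting on the mitochondrial transcription factor Tfam. The log2 scaled signals were 3.46, 3.21, 2.79 and 3.28 in contralateral kidneys 1 to 4, and 3.13, 3.88, 2.71 and 3.31 in obstructed kidneys 1 to 4. The difference was 0.07 ± 0.27 (SE, n = 4 each) on the log2 scale, with obstructed kidney 2 the highest and obstructed kidney 3 the lowest of all 8. Without obstructed kidney 2 it was -0.14, and before scaling it was 0.95 (1.03 without obstructed kidney 2), where the median of all tested miRNAs was 0.74. The summed signal before scaling ran from 3817 to 5662 in contralateral and from 6015 to 15781 in obstructed kidneys, so the unscaled groups did not overlap (higher in obstructed kidneys, beside 5.41% of all tested miRNAs) while the scaled ones did.

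The 2 probes of miR-709 did not move in parallel. Their log2 gap was 2.69, 2.81, 3.46 and 2.92 in contralateral kidneys 1 to 4, and 3.00, 2.10, 2.93 and 2.28 in obstructed kidneys 1 to 4. The dimmer probe gained on the brighter one in obstructed kidneys 2 and 4 and lost in contralateral kidney 3. Its log2 difference between groups was 0.41 and that of the brighter probe 0.015. Over arrays the gap ranged over 1.36, against 0.34 for miR-690 and 0.37 for miR-720, and the standard error of a miR-709 probe's log2 mean from its spots was at most 0.042.

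miR-720 had a smaller difference between the groups than miR-805 and was not called. Its sequence is widely held to be a fragment of a transfer RNA. Log2 scaled signals were 1.03, 1.22, 0.89 and 1.00 in contralateral kidneys 1 to 4, and 0.0031, 0.90, 0.62 and -0.19 in obstructed kidneys 1 to 4. Obstructed kidney 2 lay just above the lowest contralateral kidney, number 3, and the other 3 obstructed kidneys lay below all contralateral ones. The log2 difference was -0.70 ± 0.25 (SE, n = 4 each), or 1.63-fold lower, and -0.89 without obstructed kidney 2. Its 2 probes gave -0.62 and -0.71. Before scaling the direction turned, with a log2 difference of 0.18, or 0.28 without obstructed kidney 2. The summed signals were then 1050, 971, 1022 and 1163 in contralateral kidneys and 691, 957, 2150 and 1401 in obstructed kidneys 1 to 4, so that kidneys 3 and 4 were higher than every contralateral kidney and kidneys 1 and 2 lower.

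Scaled values of the 4 names were correlated over the 8 arrays, for all 6 pairs. For miR-805, Pearson's r was 0.90 with miR-720, 0.79 with miR-690 and 0.37 with miR-709, and with group means removed it was 0.76, 0.81 and 0.79. For miR-690 it was 0.69 with miR-709 and 0.64 with miR-720, and 0.82 and 0.52 with group means removed. Between miR-709 and miR-720 it was 0.13, and 0.31 with group means removed. Without obstructed kidney 2, and with group means left in, the 6 values of r ranged from 0.016 (miR-709 with miR-720) to 0.90 (miR-805 with miR-720). The values with group means removed include obstructed kidney 2, far from the rest of its group for miR-805, and were not computed without it. The arrays share a scaling factor with all their miRNAs, and these correlations are a description.

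The 3 tested miRNAs whose pattern over the 8 arrays was most like that of miR-805 were miR-29c* (r = 0.993), miR-200a* (0.987) and miR-200b* (0.983), the minor strands of precursors of the miR-29 and miR-200 families. Like miR-805 they were lower in obstructed kidneys 1, 3 and 4 and near the contralateral values in kidney 2: for miR-29c* the contralateral kidneys lay between -1.92 and -1.54, obstructed kidney 2 at -2.12 and the other obstructed kidneys between -3.20 and -2.97. Their log2 differences, -1.10, -0.55 and -0.56, were smaller than that of miR-805. Before scaling the likeness to miR-200a* and miR-200b* was gone (r = 0.045 and 0.084), and that to miR-29c* was 0.67.

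The pattern of miR-690 was most like those of miR-327 (r = 0.929), miR-681 (0.908) and miR-874 (0.904). This held before scaling (r of 0.87, 0.88 and 0.86). In obstructed kidneys 1 and 3 miR-327 was at the floor (-5.56), so its r rests partly on values set to the floor. miR-681 was at -4.12 in contralateral kidney 3 and at -4.43, -0.91, -5.04 and -2.50 in obstructed kidneys 1 to 4. For miR-709 the closest were miR-1906 (r = 0.965), miR-705 (0.963) and miR-1896 (0.950), each highest in obstructed kidney 2 and lowest in contralateral kidney 3 or obstructed kidney 3. For miR-720 they were miR-378* (r = 0.940), miR-30c (0.924) and miR-30e* (0.919), and all 3 were lowest in obstructed kidney 4 and highest in contralateral kidney 2, as miR-720 was. Without obstructed kidney 2 the r of these 12 likenesses lay between 0.890 and 0.997. Before scaling, over all arrays, r with miR-709 was 0.76 for miR-1906, 0.87 for miR-705 and 0.84 for miR-1896. For miR-720 it was then 0.90 with miR-378*, 0.58 with miR-30c and 0.54 with miR-30e*.

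Some of the cell type markers differed between the groups, and the part of such markers in the values above was not tested. Of 4 tubule markers, 3 were tested and 2, miR-192 and miR-194, were called lower, beside 13.5% of all tested miRNAs; their summed scaled signal was 11.6 to 17.1 in contralateral and 4.39 to 8.67 in obstructed kidneys. Of 7 leukocyte markers, 5 were tested and 0 called (limma; 3 at an unadjusted p under 0.05), with sums of 1.99 to 2.71 and 1.88 to 7.69. Obstructed kidney 2 had tubule markers at -0.86 from the contralateral mean, within the -1.21 to -0.70 of the other obstructed kidneys, but leukocyte markers at -0.37, where the others were at 1.70 to 1.88. In that kidney miR-805 was at -0.34, miR-690 at 0.97, miR-709 at 0.69 and miR-720 at -0.14 from the contralateral mean.

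Erythroid, endothelial and muscle markers were looked at in the same way. Of 3 erythroid markers 2 were tested and 0 called (limma; 0 at an unadjusted p under 0.05), with sums of 5.17 to 44.6 in contralateral and 5.16 to 24.4 in obstructed kidneys; the highest arrays were contralateral kidney 2 and obstructed kidney 2, which were also the highest of their groups for miR-690. Both endothelial markers were tested and 1 was called lower, beside 13.5% of all tested miRNAs, with sums of 12.1 to 15.2 and 9.57 to 13.2. Of 3 striated muscle markers 1 was tested and 0 called (limma; 1 at an unadjusted p under 0.05), with sums of 0.0780 to 0.114 and 0.0639 to 0.0857, and miR-133a and miR-206 were above background on 1 array each.

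**Figure D4:**
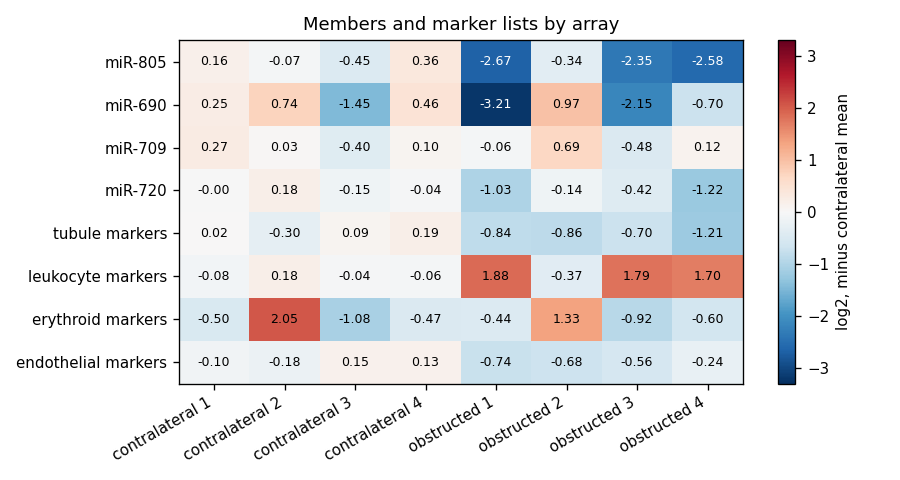
Log2 scaled signal minus the contralateral mean, for the 4 names and for the mean of the tested markers of 4 cell types (rows), on each array (columns). Red is higher and blue lower. In obstructed kidney 2 miR-805 is at -0.34, miR-690 at 0.97, leukocyte markers at -0.37, tubule markers at -0.86 and erythroid markers at 1.33.

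The sign of the difference was the same in both slide rows for miR-805, miR-690 and miR-720, but not for miR-709. All arrays were taken as on 1 slide. The rows were read from the names of the scanner outputs and are not in the sample labels. Kidneys 1 and 2 of both groups were in row 1 and kidneys 3 and 4 in row 2. Within row 1 the log2 differences were -1.55 for miR-805, -1.62 for miR-690, 0.17 for miR-709 and -0.68 for miR-720. Within row 2 they were -2.42, -0.93, -0.027 and -0.73, with 2 arrays against 2 in each row.

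**Figure D5:**
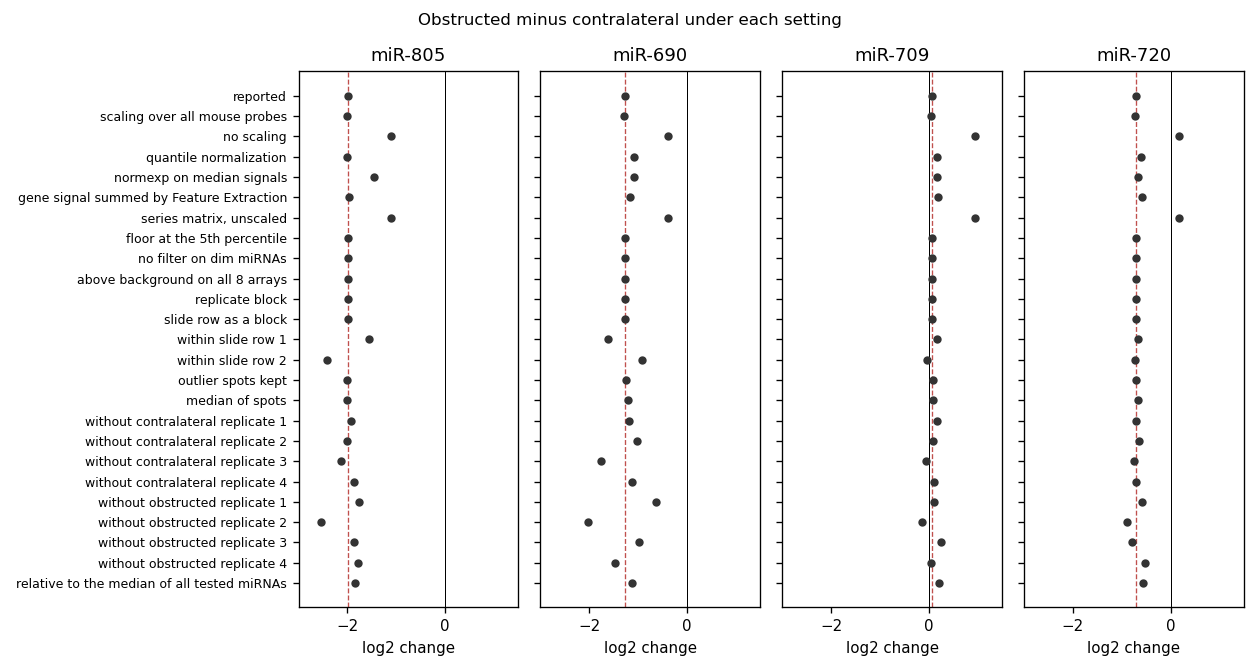
Log2 difference of obstructed minus contralateral kidneys (horizontal axes) for each name under each way of processing the arrays or leaving one out (rows); the dashed line is the reported value and the thin line is 0. miR-805 stays between -2.53 and -1.10 and miR-690 between -2.02 and -0.39, while miR-720 runs from -0.89 to 0.18 and miR-709 from -0.14 to 0.95.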

How the data were processed

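Total RNA of 8 kidneys was labelled with Cy3 and hybridised to 1-colour Agilent mouse miRNA arrays. The deposited intensity values came from Agilent Feature Extraction, version 10.7.3.1 per the file headers and 10.1.1 per the submitters' processing notes, with local background subtracted, spatial trends removed and no scaling between arrays. The authors also deposited 0 or 1 score values per spot that flag saturation, outliers and signal above background. The series matrix held the same intensities.

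Outlier spots were left out and spots of a probe averaged (1759 probes, 611 mouse names). A probe was above background when more than 50% of its spots were flagged so, and a name when 1 of its probes was. Signals of an array were divided by the 75th percentile of 371 probes, those above background on all 8 arrays. Probes were summed per name, floored at 0.0213, and log2 was taken, so changes are relative to bright probes. Names above background on all arrays of 1 group (222) were tested with limma 3.58.1 in R 4.3.3, and the fitting step was also checked on simulated data with known changes. Sequences came from RefSeq (GRCm38.p6). Promoters were counted with pandas 2.3.3 in Python 3.11.15, and plots were drawn with matplotlib 3.10.9.

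The names followed, the marker lists and the range of numbers were chosen with earlier results of these data known. Besides the 4 names, the naming rule took the 3 tested miRNAs with the highest correlation to each over 8 arrays and any called name in the number range. Alternatives were other scalings, background corrections, floors, filters, probe and spot summaries, blocks for slide row and kidney number, and each array left out. The planned normexp correction used median spot signals, since the files give no mean spot signal. Precision is limited by the 8 arrays.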

Additional observations from a re-analysis of the deposited data

Results flagged for a closer look

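In the obstructed group, miR-805 had 1 kidney far from the other 3. Obstructed kidney 2 was at -2.30 on the log2 scale and the others between -4.63 and -4.31, so that the gap was 0.860 of the group's whole range, above Dixon's critical value for 4 samples. This position of kidney 2 is what made the groups overlap, and that overlap was known when miR-805 was chosen, so the value describes the choice and is not independent of it. Of 10 groups of 4 samples examined in this way, 1 was flagged, this one. Chance gives about 1 in 20 such groups, a rate that holds for groups not chosen for their values. From the contralateral mean, the same kidney had leukocyte markers at -0.37, where the other obstructed kidneys were at 1.70 to 1.88, and tubule markers at -0.86, within their -1.21 to -0.70.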

How the results depend on the processing

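Of the 4 names, miR-805 and miR-690 kept a negative log2 difference under every alternative run. The difference of miR-709, reported as 0.07, and that of miR-720, reported as -0.70, changed sign under some. Without scaling, and with the unscaled series matrix, miR-805 was at -1.10, miR-690 at -0.39 (SE 0.71), miR-709 at 0.95 and miR-720 at 0.18. No scaling is made to a common level there, and the median of all tested miRNAs was 0.74. With normexp, an alternative changed after seeing the files, miR-805 was at -1.45, where that median was -0.62. miR-805 passed the threshold in 7 of 23 alternative fits and miR-690 in 0. Since the call of miR-805 is part of how it was chosen, its count is a description and no support for the call. Some of those 7 fits differ little from the reported one, such as those with another floor or with outlier spots kept. Leaving out each array in turn gave -2.53 to -1.75 for miR-805, -2.02 to -0.63 for miR-690, -0.14 to 0.25 for miR-709 and -0.89 to -0.53 for miR-720, which passed only without obstructed kidney 2, and 0.63 to 1.17 for the log2 array signal. The number of called miRNAs (limma), 33, was 0 with scaling over all mouse probes (56 at an unadjusted p under 0.05), 0 with normexp (54), 3 with no scaling, with the series matrix, with quantile normalization and with the summed gene signal, 17 with no filter on dim miRNAs, 0 within slide row 1 (1 at an unadjusted p under 0.05), 69 within slide row 2 and 0 to 113 when an array was left out (54 to 67 at an unadjusted p under 0.05 in the 5 fits that gave 0). With the kidney number as a replicate block it was 0 (67 at an unadjusted p under 0.05), but deviations of kidneys of the same number correlated at -0.35 to 0.62, and nothing says that they share a mouse. The cause of these changes was not tested.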

Other observations

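The 14 tested names numbered miR-680 to miR-721, with miR-805, had a mean log2 scaled signal, minus the contralateral mean, of 0.48, 0.070, -0.69 and 0.14 in contralateral kidneys 1 to 4 and of -0.72, 0.88, -0.84 and 0.49 in obstructed kidneys 1 to 4. Single names departed from that mean: in obstructed kidney 4 miR-805 was at -2.58, miR-720 at -1.22, miR-690 at -0.70 and miR-709 at 0.12. Erythroid markers were lowest of their group in contralateral kidney 3 (-1.08) and obstructed kidney 3 (-0.92), as the mean of the 14 was, and highest in contralateral kidney 2 (2.05) and obstructed kidney 2 (1.33), of which the 14 were highest of their group in the obstructed one alone. Their part in these values was not tested. Of the 14, miR-685 and miR-714 passed the filter on dim signals through the obstructed group alone. The mean of the 14 in obstructed kidneys therefore includes names picked for signal there.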
